A study of Homo sapiens with 40 samples.

Results

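The 9 genes described here encode factors that form the 3′ end of replication-dependent histone mRNAs: SLBP (ENSG00000163950_at), LSM10 (ENSG00000181817_at), LSM11 (ENSG00000155858_at), ZNF473 (ENSG00000142528_at), SYMPK (ENSG00000125755_at), CPSF2 (ENSG00000165934_at), CPSF3 (ENSG00000119203_at), CSTF2 (ENSG00000101811_at) and ERI1 (ENSG00000104626_at). They were taken as a list of known partners of FLASH, the product of CASP8AP2, by Ensembl identifier. The rule used no measured value, but the list was chosen with earlier results of these data known. All 9 were present among the 22069 genes measured. Gene expression was profiled on 40 Affymetrix Human WT arrays in U2OS, an osteosarcoma cell line, and in hTERT-RPE1, retinal pigment epithelial cells immortalized with telomerase (RPE1 in the plots). Both lines were transfected with 15 nM of control siRNA or of pools of 4 siRNAs against CASP8AP2, NPAT or HINFP. On day 1 and on day 2, each line had a control siRNA group and a CASP8AP2 siRNA group of 3 arrays each. On day 3, each line had control, CASP8AP2, NPAT and HINFP siRNA groups of 2 arrays each. The labels give no further treatment, and every group, controls included, was transfected. The labels call the replicates biological, but the methods state that duplicates were transfected simultaneously, so the p-values measure the spread between these cultures only.

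Replication-dependent histone mRNAs end in a stem-loop instead of a poly(A) tail. SLBP binds the stem-loop, and the U7 snRNP, which carries the proteins LSM10 and LSM11 in its ring, base pairs with the pre-mRNA downstream of the cleavage site. ZNF473, also called ZFP100, is a zinc finger protein that binds both SLBP and LSM11. FLASH binds LSM11, and together they recruit a cleavage complex that holds SYMPK, a scaffold, CPSF2 and CPSF3, where CPSF3 is the endonuclease, and CSTF2. ERI1 is a 3′ exonuclease that trims histone mRNA ends and takes part in their degradation. NPAT and HINFP act earlier, in transcription of the histone genes. The authors also count CASP8AP2 among the regulators of this transcription, and found it bound with NPAT at replication-dependent histone genes. The comparisons ask whether the mRNAs of the processing partners respond when FLASH, NPAT or HINFP is depleted.

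RefSeq's promoter table for build GRCh38.p14 held 7 of the 9 genes, without ZNF473 and ERI1. The 250 bases before the annotated transcript start are shown for the 4 genes of this table that fell together in U2OS cells on day 2. They lie at chr4:1712320-1712569 on the minus strand (SLBP), chr1:36397909-36398158 on the minus strand (LSM10), chr14:92121719-92121968 on the plus strand (CPSF2) and chrX:100820141-100820390 on the plus strand (CSTF2). Each is written 5′ to 3′ on the gene's strand, and capitals mark a CCAAT match.
SLBP: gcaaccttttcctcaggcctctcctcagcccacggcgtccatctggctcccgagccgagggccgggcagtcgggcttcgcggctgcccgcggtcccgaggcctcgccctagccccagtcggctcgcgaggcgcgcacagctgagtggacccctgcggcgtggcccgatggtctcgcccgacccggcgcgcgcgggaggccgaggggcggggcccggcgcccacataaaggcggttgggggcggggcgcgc
LSM10: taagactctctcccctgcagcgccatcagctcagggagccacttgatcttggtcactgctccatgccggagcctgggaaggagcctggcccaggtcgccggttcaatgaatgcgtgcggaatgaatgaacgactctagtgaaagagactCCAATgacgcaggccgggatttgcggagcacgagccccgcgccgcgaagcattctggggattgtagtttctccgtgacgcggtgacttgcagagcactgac
CPSF2: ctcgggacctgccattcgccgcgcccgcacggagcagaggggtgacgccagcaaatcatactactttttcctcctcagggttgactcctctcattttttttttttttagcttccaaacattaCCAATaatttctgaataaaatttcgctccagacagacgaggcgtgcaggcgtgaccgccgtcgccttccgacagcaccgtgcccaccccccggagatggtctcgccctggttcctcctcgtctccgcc
CSTF2: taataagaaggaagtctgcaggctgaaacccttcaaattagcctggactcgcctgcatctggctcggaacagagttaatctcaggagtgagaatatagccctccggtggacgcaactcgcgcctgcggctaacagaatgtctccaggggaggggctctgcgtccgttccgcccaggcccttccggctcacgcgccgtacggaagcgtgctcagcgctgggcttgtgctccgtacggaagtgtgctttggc
The upstream bases of SLBP were 77.2% G or C, against 59.2% for LSM10, 56% for CPSF2 and 59.2% for CSTF2, and the median over 35116 promoters was 58%. CCAAT or its reverse complement ATTGG stood before LSM10 and CPSF2, and 32% of all promoters held it in the same window. The E2F motifs TTTCCCGC and TTTGGCGC, searched on both strands, were in none of these 4 windows, and 1 of the 7 genes, CPSF3, held a TTTGGCGC. Either E2F motif was in 1.93% of all promoters. These matches are letters in a window and give no information on binding.

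Each siRNA lowered its target (highest limma adjusted p = 0.00263). CASP8AP2 mRNA after its siRNA lay at 30.1% to 44.3% of control in U2OS cells and at 55.5% to 59.1% in hTERT-RPE1 cells over the 3 days. On day 3, NPAT lay at 33.3% in U2OS and 40.3% in hTERT-RPE1 cells after its siRNA, and HINFP at 32.0% and 48.4%. Of 11 cell type markers listed, 5 could be matched to a gene of the table. The retinal pigment epithelium markers RLBP1 and BEST1 and the bone markers IBSP and COL1A2 averaged 3.47 to 4.49 in the control groups of both lines, under the median of every array. RUNX2, an osteoblast transcription factor, was higher in hTERT-RPE1 (9.57 to 9.67) than in U2OS cells (7.34 to 7.87) under control siRNA. All values are log2 values as deposited, and differences between groups are on this log2 scale.

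**Figure D1:**
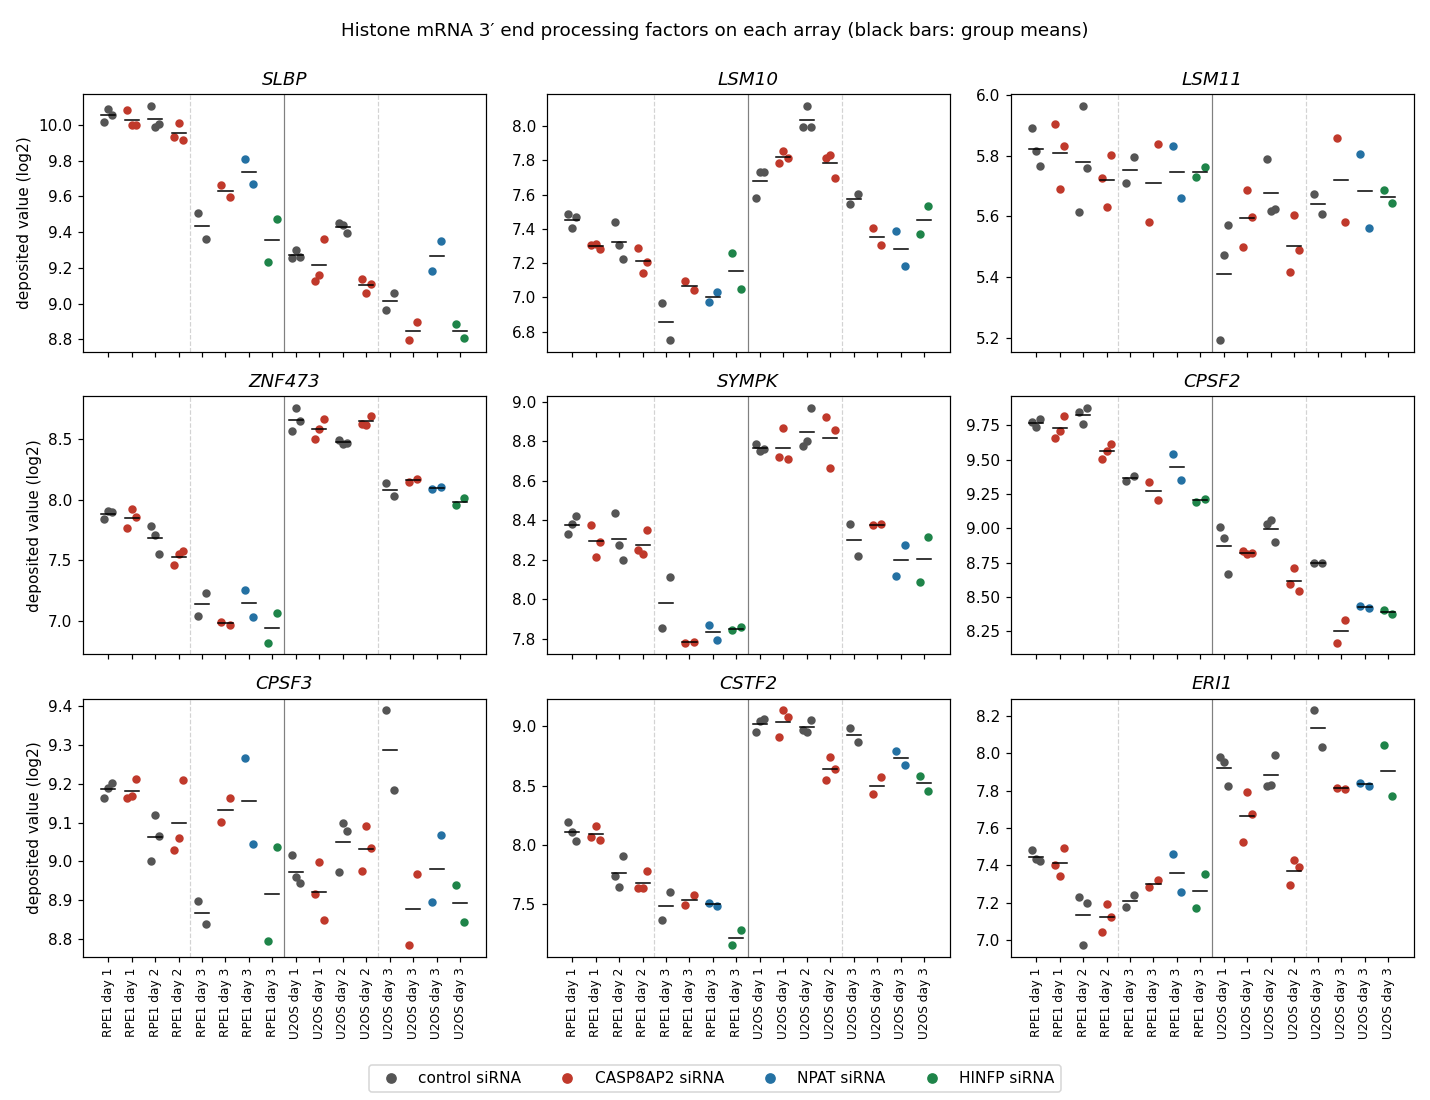
Deposited log2 value (y axis) of each processing factor on each of the 40 arrays, by cell line and day (x axis); points are arrays coloured by siRNA and black bars are group means. On day 2 in U2OS cells, the CASP8AP2 siRNA points of SLBP, LSM10, CPSF2, CSTF2 and ERI1 all lie below the control points.

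In U2OS cells on day 2 after CASP8AP2 siRNA, 5 of the 9 factors fell and no factor rose at a limma adjusted p under 0.05. They were the stem-loop binder SLBP, the U7 protein LSM10, the cleavage complex members CPSF2 and CSTF2, and the exonuclease ERI1, and their levels were between 70.2% and 83.8% of control. In this comparison 24.9% of all genes were called, and 13.1% were called lower, against 55.6% of the 9 factors. With the dimmest 25% of genes left out, 33.8% of the remaining genes were called. The share of calls over all genes that were lower was 52.7% as deposited, 39.4% after cyclic loess normalization and 61.4% after centring on array medians. The median difference was -0.26 over the factors and -0.01 over all genes.

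SLBP read 9.45, 9.44 and 9.40 in the 3 control arrays of U2OS cells on day 2 and 9.14, 9.06 and 9.11 after CASP8AP2 siRNA. The groups did not overlap, and SLBP fell by 0.33 on the log2 scale (SE 0.06), to 79.8% of control (limma adjusted p = 0.000187). Among the U7 snRNP factors, LSM10 read 8.00, 8.12 and 8.00 in the controls and 7.81, 7.83 and 7.70 after CASP8AP2 siRNA. All 3 treated arrays were below the controls, and LSM10 fell by 0.26 (SE 0.06) to 83.8% (limma adjusted p = 0.00378). LSM11, the direct binding partner of FLASH, read 5.79, 5.62 and 5.62 in the controls and 5.42, 5.60 and 5.49 after CASP8AP2 siRNA. It did not pass the test, with a difference of -0.17 (95% confidence interval -0.37 to 0.03), although all treated arrays lay below the controls. ZNF473 read 8.49, 8.46 and 8.47 in the controls and 8.63, 8.62 and 8.69 after CASP8AP2 siRNA, with all treated arrays above the controls. Its difference of 0.17 missed the threshold (limma adjusted p = 0.0551), and passed it after cyclic loess normalization (0.24, limma adjusted p = 0.00603), with the dimmest 25% of genes left out (limma adjusted p = 0.0411) and with a trended, robust variance (limma adjusted p = 0.0476).

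The cleavage complex split into members that fell and members that did not pass the test. CPSF2 read 9.03, 9.06 and 8.90 in the controls and 8.59, 8.71 and 8.54 after CASP8AP2 siRNA. Its groups did not overlap, and it fell by 0.38 (SE 0.07) to 76.8% of control (limma adjusted p = 0.000432). CSTF2 read 8.97, 8.95 and 9.06 in the controls and 8.55, 8.74 and 8.64 after the siRNA. CSTF2 fell by 0.35 (SE 0.08) to 78.5% (limma adjusted p = 0.00129), again without overlap. A close paralog of CSTF2, CSTF2T, exists, and how probes shared by both were assigned is not given in the sources used here. The scaffold SYMPK differed by -0.03 (95% confidence interval -0.19 to 0.12) and the endonuclease CPSF3 by -0.02 (-0.14 to 0.10), with overlapping groups for both. ERI1 had the largest difference of the 9 factors. It read 7.82, 7.83 and 7.99 in the controls and 7.29, 7.43 and 7.39 after CASP8AP2 siRNA, and fell by 0.51 (SE 0.08) to 70.2% (limma adjusted p = 3.58e-05). The calls of SLBP, LSM10, CPSF2, CSTF2 and ERI1 held in all 13 alternatives tried, which include leaving out each of the 6 arrays in turn.

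Transcripts of the G1/S list moved in the same comparison. Of 24 genes listed as peaking at G1/S or in S phase, 13 could be matched to the table, and 9 of these 13 fell while none rose. The list's members called in the most siRNA comparisons were E2F2, an activating E2F factor, at 61.6% of control on day 2, UNG, a uracil-DNA glycosylase, at 61.7%, and CCNE1 (cyclin E1) at 85.2%. The marker RUNX2 rose to 137% of control (limma adjusted p = 0.00526), and the other 4 markers did not pass. The part of these genes in the values of the processing factors was not tested. In bulk cultures, fewer cells in a cycle phase and less RNA per cell cannot be told apart. Only 2 of 38 further genes of histone mRNA 3′ end formation and its shared machinery could be matched, so that list gives no count. Both fell in this comparison, the Sm ring protein SNRPD1 to 62.8% and the export receptor XPO1 to 82.4%.

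**Figure D2:**
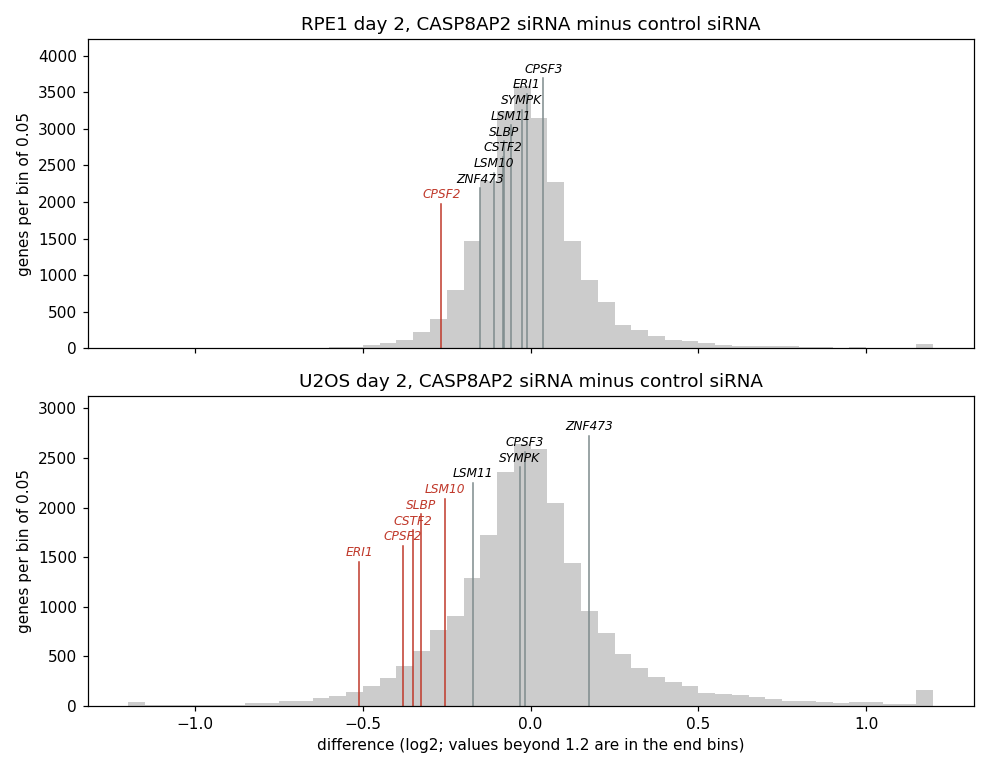
Number of genes (y axis) by log2 difference between CASP8AP2 and control siRNA on day 2 (x axis, bins of 0.05, grey) in RPE1 (top) and U2OS cells (bottom), with the 9 factors as vertical lines, red where the limma adjusted p was under 0.05. In U2OS cells 5 factors lie on the left flank, from -0.51 for ERI1 to -0.26 for LSM10, and in RPE1 cells CPSF2 alone is red, at -0.27.

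On day 1 in U2OS cells, no factor passed the test, although CASP8AP2 mRNA was already at 40.6% of control and 5.87% of all genes were called. Of the G1/S list 1 of 13 fell, CCNE2 (cyclin E2), to 74.6%. At an unadjusted p under 0.05 by limma, 2 of the 9 factors and 3874 of the 22069 genes passed. ERI1 came closest, with controls of 7.98, 7.95 and 7.83 and treated arrays of 7.52, 7.79 and 7.67. All treated arrays were lower, and the difference of -0.26 had a limma adjusted p of 0.055. It passed the threshold after centring on array medians (-0.28, limma adjusted p = 0.0399), with the dimmest 25% of genes left out (0.0411) and with a trended, robust variance (0.0465). It also passed without control replicate 3 (-0.30, limma adjusted p = 0.0476) or without CASP8AP2 replicate 2 (-0.32, limma adjusted p = 0.0277). LSM10 was 0.14 higher on day 1 (95% confidence interval 0.01 to 0.27, limma adjusted p = 0.247).

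The days were also compared directly within U2OS cells, as the effect of CASP8AP2 siRNA on day 2 minus that on day 1, and 3 of the 9 factors were called, against 7.04% of all genes. The difference between effects was -0.39 for LSM10 (limma adjusted p = 0.00814), and this call held in all 19 alternatives. It was -0.37 for CSTF2 (limma adjusted p = 0.038) and -0.27 for SLBP (limma adjusted p = 0.0476), and these calls were lost in 12 and in 14 of 19 alternatives. CSTF2 lost its call without any 1 of the 12 arrays other than day 1 CASP8AP2 replicate 1 and day 2 CASP8AP2 replicate 2, with adjusted p-values from 0.0518 to 0.106 and differences from -0.39 to -0.32. SLBP lost its call without any 1 of the 12 arrays other than day 1 CASP8AP2 replicates 1 and 2, with adjusted p-values from 0.0604 to 0.126 and differences from -0.29 to -0.20. CPSF2 had a difference of -0.34 that missed the threshold (limma adjusted p = 0.0539). It passed without day 1 control replicate 1 (-0.40, limma adjusted p = 0.0209), day 2 control replicate 3 (-0.38, 0.0427) or day 2 CASP8AP2 replicate 2 (-0.38, 0.0395), and in 4 further alternatives with adjusted p-values from 0.0288 to 0.0492. ERI1 had a difference of -0.25 (limma adjusted p = 0.194). ZNF473 had one of 0.25 (limma adjusted p = 0.113), which passed after cyclic loess normalization (0.31, limma adjusted p = 0.0411). In hTERT-RPE1 cells 0 of 9 factors differed between the days at an adjusted p under 0.05 by limma, and 0.652% of all genes were called. At an unadjusted p under 0.05, 1 of the 9 factors and 1948 of the 22069 genes passed.

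In hTERT-RPE1 cells, CASP8AP2 siRNA changed 0 of the 9 factors on day 1 by limma (0.793% of all genes were called). There, 1 factor and 2088 of the 22069 genes passed at an unadjusted p under 0.05. On day 2 the siRNA changed 1, CPSF2, where 6.40% of all genes were called and 2.16% were called lower. The share of calls over all genes that were lower was 33.7% as deposited and 58.1% after centring on array medians. CPSF2 read 9.85, 9.76 and 9.88 in the controls and 9.51, 9.56 and 9.62 after the siRNA. The groups did not overlap, and CPSF2 fell by 0.27 (SE 0.07) to 83.1% of control (limma adjusted p = 0.0308). This call was lost in 6 of 13 alternatives. Without control replicate 1 or 3 the difference was -0.26 or -0.24 (limma adjusted p = 0.0788 or 0.106), and without CASP8AP2 replicate 1, 2 or 3 it was -0.24, -0.27 or -0.29 (limma adjusted p = 0.123, 0.0746 or 0.0524). A fit of only the arrays compared gave an adjusted p of 0.129. Of the G1/S list 3 of 13 fell in this comparison, CCNE1 to 77.2%, UNG to 81.3% and MCM3, a replicative helicase subunit, to 85.6%, and SNRPD1 fell to 79.3%. Their part in the CPSF2 value was not tested. The other 8 factors had 95% confidence intervals within -0.29 and 0.16 on day 2, so that a change as large as that of ERI1 in U2OS cells lay outside the interval of every one of them.

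**Figure D3:**
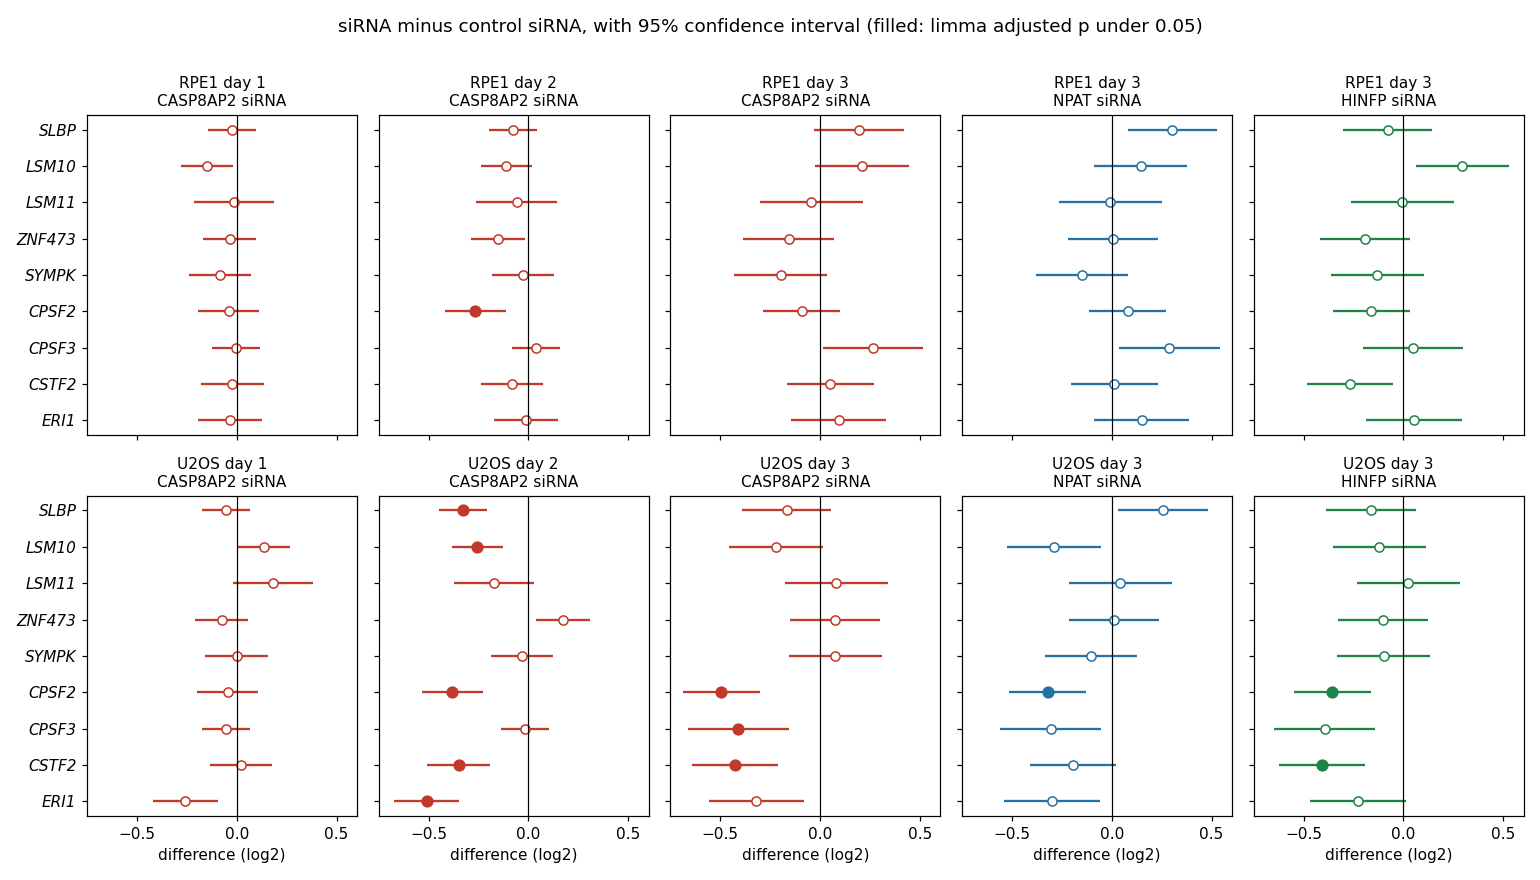
Log2 difference between each siRNA and control siRNA (x axis) for each factor (y axis), by comparison, in RPE1 (top) and U2OS cells (bottom); bars are 95% confidence intervals and filled points have a limma adjusted p under 0.05. Of the 45 values in each line, 1 is filled in RPE1 and 11 in U2OS cells, all of them below 0.

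Whether the lines differed was tested as the effect in U2OS minus the effect in hTERT-RPE1 cells. On day 1 no factor differed by limma, against 0.689% of all genes. At an unadjusted p under 0.05, LSM10 alone of the factors and 2338 of the 22069 genes differed. On day 2, 2 of the 9 factors differed, against 9.39% of all genes. The knockdown also differed on day 2: CASP8AP2 mRNA itself had a difference between effects of -0.97 (limma adjusted p = 4.56e-05), with the deeper fall in U2OS cells. Its part in the differences of the factors was not tested. ERI1 had a difference between effects of -0.50 (SE 0.11, limma adjusted p = 0.00503). Its hTERT-RPE1 arrays overlapped, with 7.23, 6.97 and 7.20 in the controls and 7.05, 7.20 and 7.13 after CASP8AP2 siRNA, and the call held in all 19 alternatives. ZNF473 differed the other way, by 0.33 (SE 0.09, limma adjusted p = 0.0271): its difference was -0.15 in hTERT-RPE1 and 0.17 in U2OS cells, neither past the threshold as deposited. The ZNF473 call was lost in 8 of 19 alternatives, 6 of them without 1 array (hTERT-RPE1 control replicate 1 or 2 or CASP8AP2 replicate 1, U2OS control replicate 2 or 3 or CASP8AP2 replicate 3), with differences from 0.28 to 0.32 and adjusted p-values from 0.0525 to 0.0761. For SLBP the lines were not separated as deposited (-0.25, limma adjusted p = 0.0619), but were without hTERT-RPE1 control replicate 1 (-0.28, limma adjusted p = 0.0349), with the dimmest 25% of genes left out (0.046) and with a trended, robust variance (0.0341). For CSTF2 the difference was -0.27 (limma adjusted p = 0.131), and -0.34 without hTERT-RPE1 control replicate 3 (limma adjusted p = 0.0438). CPSF2, which was called in both lines on day 2, differed between them by -0.11 (95% confidence interval -0.33 to 0.10).

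On day 3, with 2 arrays per group, CASP8AP2 siRNA lowered 3 of the 9 factors in U2OS cells, all in the cleavage complex, and raised none. Of all genes 18.9% were called and 11.0% were called lower, and 26.3% were called with the dimmest 25% of genes left out. The median difference was -0.22 over the factors and 0.02 over all genes, and the share of lower calls over all genes was 58.1% as deposited and 68.5% after centring on array medians. CPSF2 read 8.75 and 8.74 in the controls and 8.17 and 8.33 after the siRNA. It fell by 0.50 (SE 0.09) to 70.9% of control (limma adjusted p = 0.00212), and the call held in all 11 alternatives. The same siRNA and line gave a called fall of CPSF2 on day 2, in separate cultures with separate controls.

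CSTF2 read 8.99 and 8.87 in the day 3 controls of U2OS cells and 8.43 and 8.57 after CASP8AP2 siRNA. It fell by 0.43 (SE 0.10) to 74.4% (limma adjusted p = 0.00998), and the call was lost without control replicate 1 (-0.37, limma adjusted p = 0.0891) or CASP8AP2 replicate 1 (-0.36, limma adjusted p = 0.101). CPSF3, which had shown a difference of -0.02 on day 2, read 9.39 and 9.18 in the controls and 8.78 and 8.97 after the siRNA. It fell by 0.41 (SE 0.12) to 75.3% (limma adjusted p = 0.0265), and lost its call without control replicate 1 (-0.31, limma adjusted p = 0.205), without CASP8AP2 replicate 1 (-0.32, limma adjusted p = 0.207) and after cyclic loess normalization (-0.30, limma adjusted p = 0.0847). ERI1 read 8.23 and 8.04 against 7.82 and 7.81, a difference of -0.32 that missed the threshold (limma adjusted p = 0.0615) and passed it after centring on array medians (-0.37, limma adjusted p = 0.0365) and in 1 fit of all 40 arrays (limma adjusted p = 0.0182). SLBP, LSM10, LSM11, ZNF473 and SYMPK did not pass, with differences from -0.22 for LSM10 to 0.08 for LSM11. Of the G1/S list 4 of 13 fell, UNG to 68.7%, E2F2 to 70.4%, CCNA2 (cyclin A2) to 70.6% and SKP2, an F-box protein, to 72.1%, and SNRPD1 fell to 79.5%. Their part was not tested.

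In hTERT-RPE1 cells on day 3, no factor passed the test after CASP8AP2 siRNA by limma, against 6.15% of all genes. An unadjusted p under 0.05 was found for 1 of the 9 factors and for 4364 of the 22069 genes. Of the G1/S list 2 of 13 fell, CCNE1 to 70.0% and E2F2 to 64.4%. The factor was CPSF3, which read 8.90 and 8.84 in the controls and 9.10 and 9.16 after the siRNA, a difference of 0.26 (limma adjusted p = 0.229). The difference between the lines for CPSF3 was -0.67 (SE 0.16, limma adjusted p = 0.0233), the single factor of 9 called there against 9.55% of all genes. This call was lost without U2OS control replicate 1 (-0.57, limma adjusted p = 0.0937), U2OS CASP8AP2 replicate 1 (-0.58, 0.0993), hTERT-RPE1 control replicate 2 (-0.65, 0.0588) or hTERT-RPE1 CASP8AP2 replicate 2 (-0.64, 0.0793). CSTF2 and CPSF2 missed the threshold for a difference between lines (-0.48, limma adjusted p = 0.0517, and -0.40, limma adjusted p = 0.0614). CSTF2 passed after centring on array medians (limma adjusted p = 0.0371), with the dimmest 25% of genes left out (0.0439), with a trended, robust variance (0.0416) and in 1 fit of all 40 arrays (0.0118). CPSF2 passed after centring (limma adjusted p = 0.0399), with a trended, robust variance (0.0422) and in 1 fit of all 40 arrays (0.0207). CSTF2 also passed without hTERT-RPE1 control replicate 2 (-0.59) or U2OS CASP8AP2 replicate 2 (-0.55), and CPSF2 without the latter (-0.49).

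**Figure D4:**
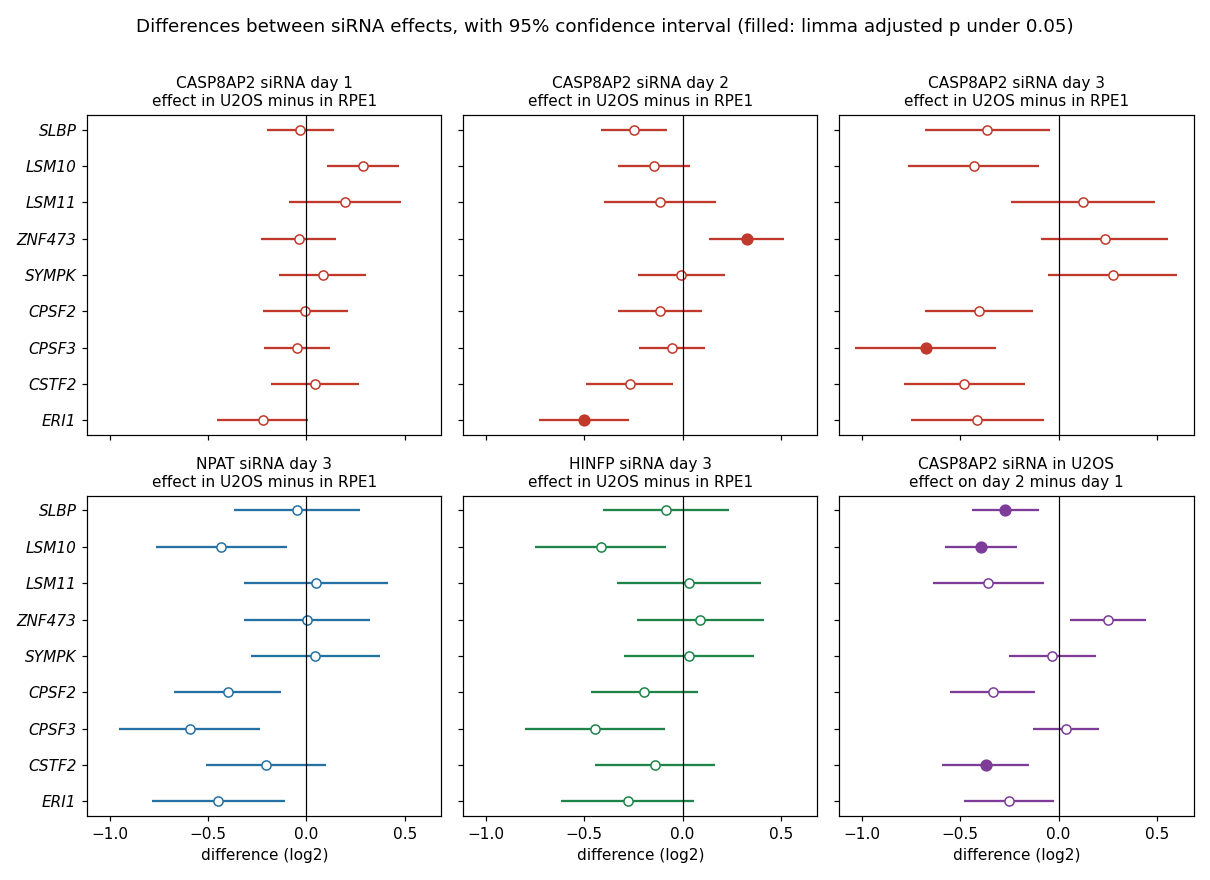
Difference between siRNA effects on the log2 scale (x axis) for each factor (y axis): effect in U2OS minus effect in RPE1 cells for each siRNA and day, and, in the last panel, the effect of CASP8AP2 siRNA in U2OS cells on day 2 minus day 1; bars are 95% confidence intervals and filled points have a limma adjusted p under 0.05. ERI1 on day 2 lies at -0.50 and CPSF3 on day 3 at -0.67, and ZNF473 on day 2 lies at 0.33.

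NPAT siRNA on day 3 lowered 1 of the 9 factors in U2OS cells, CPSF2, where 8.13% of all genes were called and 4.29% were called lower. The share of lower calls after NPAT siRNA was 52.8% as deposited, 42.7% after cyclic loess normalization and 67.0% after centring on array medians. HINFP siRNA lowered 2, CPSF2 and CSTF2, where 9.43% were called and 4.84% were called lower. Both comparisons use the same 2 control arrays as the CASP8AP2 comparison, so that the 3 sets of calls are not independent of each other. CPSF2 read 8.43 and 8.42 after NPAT siRNA and 8.40 and 8.38 after HINFP siRNA, under both controls. It fell by 0.32 to 80.1% after NPAT siRNA (limma adjusted p = 0.044) and by 0.36 to 78.2% after HINFP siRNA (limma adjusted p = 0.0238). Leaving out any 1 of the 4 arrays ended either call, with adjusted p-values from 0.141 to 0.197 for NPAT at differences of -0.33 to -0.31, and from 0.0747 to 0.138 for HINFP at -0.37 to -0.34.

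CSTF2 read 8.58 and 8.46 after HINFP siRNA in U2OS cells, and fell by 0.41 to 75.4% of control (limma adjusted p = 0.0216). Its call was lost without control replicate 1 (-0.35, limma adjusted p = 0.178), control replicate 2 (-0.47, 0.0526) or HINFP replicate 2 (-0.35, 0.173). After NPAT siRNA CSTF2 read 8.79 and 8.67, a difference of -0.19 (limma adjusted p = 0.296). CPSF3 read 8.94 and 8.84 after HINFP siRNA, a difference of -0.39 that missed the threshold (limma adjusted p = 0.0515) and met it after centring on array medians (-0.42, limma adjusted p = 0.0479), with the dimmest 25% of genes left out (limma adjusted p = 0.0432) and with a trended, robust variance (limma adjusted p = 0.0278). SLBP read 9.18 and 9.35 after NPAT siRNA against 8.96 and 9.06 in the controls, a difference of 0.26 that did not pass (limma adjusted p = 0.166). LSM10 and ERI1 gave -0.29 and -0.30 after NPAT siRNA (limma adjusted p = 0.133 and 0.125), and CPSF3 gave -0.31 (0.138). A single fit of all 40 arrays called SLBP higher (limma adjusted p = 0.0316) and LSM10, CPSF3 and ERI1 lower (0.0236, 0.0177 and 0.0435) after NPAT siRNA in U2OS cells. Of the G1/S list, 0 of 13 passed after NPAT siRNA by limma in U2OS cells, and 1 passed after HINFP siRNA, E2F2 at 73.6% of control. After NPAT siRNA, 4 of the 13 and 4806 of the 22069 genes had an unadjusted p under 0.05. SNRPD1 fell to 78.6% after NPAT siRNA.

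In hTERT-RPE1 cells, 0 of 9 factors passed after NPAT siRNA by limma (5.04% of all genes were called) and 0 of 9 after HINFP siRNA (4.15%). At an unadjusted p under 0.05, 2 of 9 factors passed after each siRNA, and 4314 and 4250 of the 22069 genes did. After NPAT siRNA the 2 factors were SLBP, at 9.81 and 9.67 against 9.50 and 9.36 in the controls (0.30, limma adjusted p = 0.119), and CPSF3 (0.29, limma adjusted p = 0.187). After HINFP siRNA they were LSM10 (0.30, limma adjusted p = 0.149) and CSTF2 (-0.27, limma adjusted p = 0.16). A single fit of all 40 arrays called SLBP and CPSF3 higher after NPAT siRNA (limma adjusted p = 0.0128 and 0.0317) and LSM10 higher after HINFP siRNA (0.0272). The G1/S genes CDC6, RRM2 and RRM1 rose after NPAT siRNA, to between 129% and 141% of control, and CCNE1, E2F1 and E2F2 fell after HINFP siRNA, to between 60.8% and 71.3%. RUNX2 fell to 51.8% after NPAT siRNA. Their part in the values of the factors was not tested. The lines did not differ for any factor after NPAT siRNA (3.46% of all genes were called) or after HINFP siRNA (3.15%) by limma. At an unadjusted p under 0.05, 4 and 2 of the 9 factors passed, and 4290 and 3796 of the 22069 genes did. The largest differences were those of CPSF3, -0.59 (95% confidence interval -0.95 to -0.24) and -0.44 (-0.80 to -0.09).

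Over the 5 siRNA comparisons of each line, 11 of 45 values were called in U2OS cells, all lower, and 1 of 45 in hTERT-RPE1 cells. This was 24.4% in U2OS, where 13.4% of all genes were called and 7.24% were called lower over the same comparisons. In hTERT-RPE1 it was 2.22%, where 4.51% were called and 1.94% were called lower. CPSF2 was called most often, in 5 of 10 comparisons, followed by CSTF2 in 3. SLBP, LSM10, CPSF3 and ERI1 were called in 1 each, all in U2OS cells. Comparisons of a line on day 3 share the same 2 control arrays, so these counts are not of independent results. The CPSF2 calls after CASP8AP2 siRNA in U2OS cells held in every alternative. Its other calls were lost in 6 of 13 (hTERT-RPE1 day 2), 7 of 11 (NPAT) and 5 of 11 (HINFP). On day 3, the CSTF2 calls were lost in 3 of 11 (CASP8AP2) and 4 of 11 (HINFP). LSM11, ZNF473 and SYMPK were called in 0 of 10 by limma as deposited. LSM11 also had the widest spread between control arrays, with a standard deviation of up to 0.20 within a group, and its differences ranged from -0.17 to 0.18.

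The lines differed in the levels of most factors before any target was depleted. Between control U2OS and control hTERT-RPE1 cells, 9 of the 9 factors differed on day 1, 7 on day 2 and 8 on day 3, where 48.7%, 50.8% and 43.8% of all genes were called. SLBP was lower in U2OS cells on every day, at 9.27 ± 0.02 (SD, n = 3) against 10.05 ± 0.04 on day 1, 9.43 ± 0.03 against 10.03 ± 0.06 on day 2, and 9.01 ± 0.07 (n = 2) against 9.43 ± 0.10 on day 3. CPSF2 was also lower, by 0.90, 0.83 and 0.62. CSTF2 was the most different, with differences of 0.91, 1.23 and 1.44, or 188%, 235% and 272% of the hTERT-RPE1 level.

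Of the other factors, ZNF473, ERI1, SYMPK and LSM10 were higher in U2OS cells on every day as deposited. ZNF473 differed by 0.78, 0.79 and 0.95 on days 1, 2 and 3, ERI1 by 0.47, 0.75 and 0.92, and SYMPK by 0.39, 0.55 and 0.32. The SYMPK call on day 3 (limma adjusted p = 0.0279) was lost without hTERT-RPE1 control replicate 1 (0.19) or U2OS control replicate 1 (0.24). It was also lost under cyclic loess normalization (0.21, limma adjusted p = 0.116), after centring on array medians (0.26, limma adjusted p = 0.0695) and with only the arrays compared (limma adjusted p = 0.097). LSM10 differed by 0.23, 0.71 and 0.72. LSM11 was lower in U2OS cells on day 1, at -0.41, and did not pass on days 2 and 3, at -0.10 and -0.11. CPSF3 was lower in U2OS cells on day 1 (-0.21, limma adjusted p = 0.00365), differed by -0.01 on day 2, and was higher on day 3 (0.42, limma adjusted p = 0.00985). The day 3 call was lost without U2OS control replicate 1 (0.32) or hTERT-RPE1 control replicate 2 (0.39). Day 3 is a separate set of arrays, and whether the line difference of CPSF3 changed between days was not tested. The share of lower calls over all genes was 46.6% on days 1 and 2 as deposited, and 64.6% on day 1 and 68.9% on day 2 after centring. Centring arrays on their medians moved the median of all genes by -0.124 on day 1 and -0.155 on day 2, and on that scale LSM10 on day 1 was no longer called (0.10, limma adjusted p = 0.171) while LSM11 and CPSF3 on day 2 were called lower in U2OS cells (-0.26 and -0.17).

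**Figure D5:**
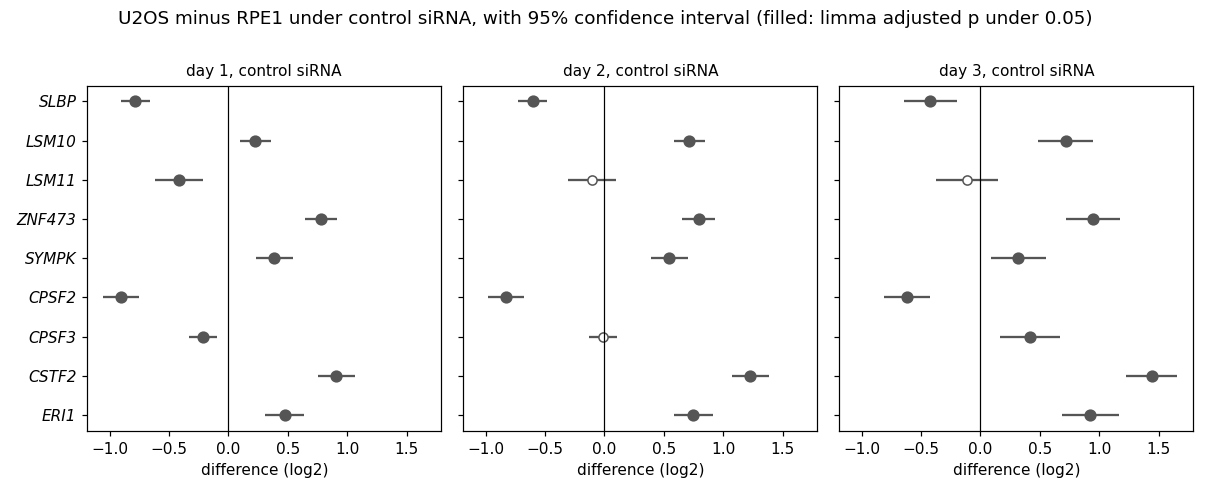
Log2 difference between U2OS and RPE1 cells under control siRNA (x axis) for each factor (y axis) on days 1, 2 and 3; bars are 95% confidence intervals and filled points have a limma adjusted p under 0.05. SLBP and CPSF2 lie left of 0 on all 3 days and CSTF2 lies farthest right, at 0.91, 1.23 and 1.44.

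Among 1923 genes with a paired symbol, those whose values followed SLBP most closely over the 24 arrays of days 1 and 2, after the mean of each line was subtracted, included GSS (Pearson's r = 0.854) and CCT4 (0.835). Over the 16 arrays of day 3 these genes gave -0.366 and 0.324. For CPSF2, the factor called most often, they were RARS (0.802), LIG3 (0.80) and PRIM2, a primase subunit (0.799), with 0.259, 0.63 and 0.92 on day 3. Among pairs of the factors themselves, CSTF2 and ERI1 had the highest r on days 1 and 2 (0.833, and 0.618 on day 3), and CPSF3 and ERI1 on day 3 (0.829, and 0.281 on days 1 and 2). These values are descriptions, since arrays of a group share a treatment and the correlations follow the group means.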

How the data were processed

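The authors extracted total RNA, hybridized it to Affymetrix Human WT arrays and deposited 1 table of log2 values for 22069 genes on 40 arrays. Their methods name the Bioconductor package affy with a custom probe grouping by Ensembl gene, and the submitters' processing notes name RMA. The version of the grouping and the genome build are not given in the sources used here. The values ranged from 1.82 to 13.58 on days 1 and 2 and from 2.28 to 13.31 on day 3, with array means of 6.00 to 6.05 and 5.85 to 5.88, and the arrays of day 3 were treated as a separate set. Replicates of a group correlated at 0.995 to 0.998. For arrays, the number per group limits the precision.

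The deposited log2 values were tested across all genes with limma 3.58.1 in R 4.3.3 (lmFit, group means, eBayes, two-sided), in 1 fit per set with 16 and 8 residual degrees of freedom. Benjamini-Hochberg adjustment was over all genes, with calls at an adjusted p under 0.05. The fit was tested on simulated data. Alternatives were other array sets, 2 other scalings, a filter on the dimmest 25% of genes, a trended and robust variance, a replicate block and leaving out each array in turn. Symbols were paired with Ensembl identifiers for 1923 genes by the authors' column, and for the 9 factors by their stated identifiers. The genes named are the 9 factors, the 3 siRNA targets, the listed G1/S and pathway genes called in the most siRNA comparisons and, for SLBP and the other factor with the most calls, the 3 genes with the highest correlation, of which 1 is not reported here. CCNE2, CCNA2, SKP2, MCM3, CDC6, RRM1, RRM2, E2F1 and RUNX2 fall outside this rule and were named after their values were seen. The members and lists were chosen with earlier results of these data known. Promoter sequences are from RefSeq. Nothing was dropped or imputed.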

Additional observations from a re-analysis of the deposited data

Results flagged for a closer look

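For 6 results the effect of CASP8AP2 siRNA differed between lines or between days by limma's test of the difference itself. On day 2 the effect in U2OS minus that in hTERT-RPE1 cells was -0.50 for ERI1 (limma adjusted p = 0.00503) and 0.33 for ZNF473 (limma adjusted p = 0.0271), and on day 3 it was -0.67 for CPSF3 (limma adjusted p = 0.0233). In U2OS cells the effect on day 2 minus that on day 1 was -0.27 for SLBP (limma adjusted p = 0.0476), -0.39 for LSM10 (limma adjusted p = 0.00814) and -0.37 for CSTF2 (limma adjusted p = 0.038). The values for ERI1 and LSM10 kept their calls under every alternative tried, and the other 4 did not. CASP8AP2 mRNA itself fell further in U2OS than in hTERT-RPE1 cells on day 2 (-0.97, limma adjusted p = 4.56e-05). On day 3 its difference was -0.41 (limma adjusted p = 0.113), and between days in U2OS cells it was -0.43 (limma adjusted p = 0.0544). The part of the knockdown in these results was not tested.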

How the results depend on the processing

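Over all factors, comparisons and alternatives, 2327 values stayed on the same side of the threshold, 75 lost a call, 55 gained one and no called value reversed, while some values that did not pass changed sign. The limits are the 2 arrays per group on day 3 and 3 on days 1 and 2. With only the arrays compared in the fit, the number of factors called was 0 on day 2 in hTERT-RPE1 and 1 on day 3 in U2OS cells after CASP8AP2 siRNA, 0 for NPAT and 0 for HINFP siRNA in U2OS cells, 1 for the line difference on day 2 and 1 for the day difference in U2OS cells. With 1 fit of all 40 arrays it was 2 for NPAT and 1 for HINFP siRNA in hTERT-RPE1 cells, 5 for NPAT siRNA in U2OS cells, and 6, 4 and 2 for the line differences of CASP8AP2, NPAT and HINFP siRNA on day 3. Median centring, leaving out the dimmest 25% of genes and the trended, robust variance each gave 1 in U2OS cells on day 1, and 3, 2 and 3 for the line difference of CASP8AP2 siRNA on day 3, and the last gave 1 for that of NPAT siRNA. Cyclic loess gave 0 for NPAT siRNA in U2OS cells.

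Leaving out 1 array at a time, the counts for U2OS cells were 5 in each case on day 2 after CASP8AP2 siRNA, 1 to 3 on day 3 and 0 to 1 on day 1, 0 for NPAT and 0 to 1 for HINFP siRNA, 0 to 1 in hTERT-RPE1 cells on day 2, 1 to 3 and 0 to 3 for the line differences of CASP8AP2 siRNA on days 2 and 3, 1 to 3 for the day difference in U2OS cells and 6 to 8 for the control lines on day 3. Same-numbered arrays of the groups compared had deviations that correlated at -0.10 to 0.21, with 0 of 12 pairs over 0.1 on days 1 and 2 and 6 of 12 on day 3. With 2 arrays per group on day 3, the 2 deviations of a group mirror each other. Both pairs of a comparison therefore gave the same value, and the day 3 pairs are not separate observations. On days 1 and 2, 6 of 24 arrays correlated best with their own number, and 12 of 16 did on day 3, where the 2 arrays of a group likewise count together. These counts are a hint from the data and not from the design, and cannot decide whether the numbers mark pairs. The main fit did not take the numbers as pairs. The replicate block gave 0 factors for NPAT siRNA in U2OS cells, where CPSF2 had a limma adjusted p of 0.0577, 1 for the line difference on day 2 and 2 for the day difference in U2OS cells, and left the other 14 counts as they were.

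The percentage of all genes called moved by over 1.5 times from the values given above in these cases. With only the arrays compared, hTERT-RPE1 cells gave 0.127% on day 1, 2.24% on day 2 and 1.74%, 0.675% and 0.113% on day 3 (CASP8AP2, NPAT and HINFP siRNA), U2OS cells gave 2.77% on day 1 and 11.1% and 5.02% on day 3 (CASP8AP2 and HINFP), the line differences gave 0.317% on day 1 and 4.72%, 2.06% and 1.31% on day 3, and the day difference in hTERT-RPE1 cells gave 0.304%. With 1 fit of all 40 arrays, day 3 gave 11.3%, 11.2% and 10.3% in hTERT-RPE1 cells, 14.3% and 15.7% in U2OS cells (NPAT and HINFP) and 17.0%, 9.66% and 7.74% for the line differences. With the dimmest 25% of genes left out, hTERT-RPE1 cells gave 1.21% on day 1 and 7.58% after NPAT siRNA. The replicate block gave 0.290% in hTERT-RPE1 cells on day 1, 0.249% for the line difference on day 1, and 0.390% and 4.51% for the day differences in hTERT-RPE1 and U2OS cells.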
